A study of Mus musculus with 15 samples.

Results

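Desmosomes are the rivet-like junctions that join keratinocytes, the main cells of the epidermis, and anchor their keratin filaments at the cell border. The 10 genes described here encode the epidermal members of each layer of this junction. They are the desmogleins *Dsg1a*, *Dsg1b* and *Dsg3*, the desmocollins *Dsc1*, *Dsc2* and *Dsc3*, the armadillo proteins *Jup*, *Pkp1* and *Pkp3*, and the keratin linker *Dsp*. They were chosen by gene symbol from the 55487 genes of the count table, and all 10 passed the filter on low counts in each comparison.

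Desmogleins and desmocollins are cadherins that reach across the gap between cells. Plakoglobin (*Jup*) and the plakophilins bind their cytoplasmic tails, and desmoplakin (*Dsp*) ties these proteins to keratins. In stratified epithelia *Dsg1* and *Dsc1* products are typical of the upper, differentiated layers, whereas *Dsg3* and *Dsc3* products are typical of the basal and lower layers.

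The promoters of *Dsp* and *Jup*, the desmosomal plaque genes outside the cadherin cluster that RefSeq's promoter table lists, are shown because both genes were highest in the same library, as described further on. Each window runs from 250 bases before to 50 bases after the RefSeq start in GRCm38.p6, *Dsp* at chr13:38151044-38151343 (plus strand) and *Jup* at chr11:100397741-100398040 (minus strand), and capitals mark the GC box, GGGCGG or its reverse complement.
Dsp: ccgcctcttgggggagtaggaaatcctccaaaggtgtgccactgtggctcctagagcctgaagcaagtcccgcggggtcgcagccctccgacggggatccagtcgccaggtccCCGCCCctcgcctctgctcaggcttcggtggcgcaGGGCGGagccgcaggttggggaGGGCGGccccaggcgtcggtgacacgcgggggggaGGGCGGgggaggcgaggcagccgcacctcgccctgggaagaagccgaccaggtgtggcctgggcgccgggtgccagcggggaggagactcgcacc
Jup: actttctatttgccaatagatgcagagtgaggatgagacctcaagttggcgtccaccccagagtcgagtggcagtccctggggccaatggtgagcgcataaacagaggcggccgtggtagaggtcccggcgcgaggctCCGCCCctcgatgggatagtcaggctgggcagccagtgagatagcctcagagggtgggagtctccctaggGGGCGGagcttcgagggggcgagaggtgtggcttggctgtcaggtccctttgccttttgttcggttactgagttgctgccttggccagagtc
The *Dsp* window held 4 GC boxes and the *Jup* window 2, and 35.7% of the 32851 promoters of this length held at least 1 on either strand. Neither window held the AP-1 motif TGANTCA, present in 7.81% of promoters, or the TATA box letters TATAAA, present in 13.6%. These are matches of letters and describe sequence only.

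The libraries came from whole skin of C57BL/6 mice aged 3 weeks, in 3 groups of 5 samples. WT mice were littermates with loxP-flanked *Otulin* alleles and no Cre. OTULIN-KO mice carried the same alleles with Cre driven by the keratin 14 promoter, which deletes *Otulin*, the gene of a linear-ubiquitin-specific deubiquitinase, in keratinocytes but not in other skin cells. OTULIN-KO skin was sampled as non-lesional or lesional. In these mice the back carries few, small lesions and the tail extensive ones, and the labels give the tissue as skin with no body site. The study counts 5 mice per group. No source used here states whether non-lesional and lesional samples came from the same animals, and the fits treated them as separate.

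Library totals ran from 1962604 to 2567138 counts. *Otulin* itself did not separate the groups, at 12.4 to 28.5 CPM (counts scaled by library size with edgeR's TMM factors) in WT, 21.5 to 31.1 in non-lesional and 19.2 to 27.5 in lesional libraries. Whole skin includes cells that keep *Otulin*, so this level does not test the deletion in keratinocytes. Markers of interfollicular keratinocytes (7 genes) were present in every library, with sums of 7791 to 15665 CPM. Lesional replicates 2 and 11 stood apart from the other 13 libraries. *Krt6b*, a keratin of hyperproliferating epidermis, reached 3569 and 8822 CPM in them, against 223 in non-lesional replicate 3 and at most 17.3 elsewhere. Their sums over 6 neutrophil markers were 3024 and 5184 CPM, against at most 221 elsewhere; this list includes *S100a8* and *S100a9*, which keratinocytes also express, and its markers *Csf3r* and *Ly6g* were at 0 in every library. Lesional replicate 11 also had the lowest sum over 11 skeletal muscle genes, 4285 CPM against 18367 or more elsewhere. WT replicate 1 had the highest sum over the hair shaft and inner root sheath markers, 1314 CPM against at most 148 elsewhere. Fold changes of the desmosomal genes that moved most with these libraries are given with and without them.

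All desmosomal cadherin genes lie in 1 cluster on chromosome 18. In GRCm38, *Dsc3*, *Dsc2* and *Dsc1* occupy 19960930 to 20002351, 20030633 to 20059554 and 20084184 to 20114871 on the minus strand. *Dsg1a*, *Dsg1b* and *Dsg3* occupy 20310811 to 20343350, 20376729 to 20410196 and 20510274 to 20547459 on the plus strand. *Dsp* lies on chromosome 13 (38151294 to 38198577, plus strand), *Jup* on chromosome 11 (100368958 to 100397763, minus strand), *Pkp1* on chromosome 1 (135871395 to 135919207, minus strand) and *Pkp3* on chromosome 7 (141078218 to 141090510, plus strand). No member shared exonic sequence with another gene on its own strand, and *Dsp* overlapped *Gm10129* on the other strand, from which its reads cannot be told apart, since the listed counting parameters set no strand. Among 35-base words from the last 500 bases of the transcripts, *Dsg1b* shared 24.9% with other genes, mainly *Dsg1a*, *Dsc1* shared 0.573% and the others none, so the *Dsg1b* counts are the least certain of the 10.

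In WT skin *Dsp* was by far the most abundant desmosomal mRNA. CPM are compared between genes without a length correction, because each transcript yields a tag from its 3′ end. *Dsp* stood at 2235 ± 448 CPM (SD, n = 5) and made up 59.5% of the members' counts. It was followed by *Pkp1* at 333 ± 43.3, *Dsc3* at 262 ± 46.1, *Pkp3* at 257 ± 36.4, *Jup* at 254 ± 37.7 and *Dsg1a* at 196 ± 22.8 CPM. The order from *Pkp1* to *Dsc1* was not resolved between neighbours, whose ranges overlapped at each step. *Dsg3* was at 99.0 ± 42.3 and *Dsc1* at 89.8 ± 9.21 CPM. *Dsg1b* at 21.1 ± 5.59 and *Dsc2* at 6.84 ± 5.82 CPM were lowest, and their ranges overlapped because *Dsc2* reached 16.9 CPM in WT replicate 1. Only the steps from *Dsp* to *Pkp1* and from *Dsc1* to *Dsg1b* had no overlap.

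**Figure D1:**
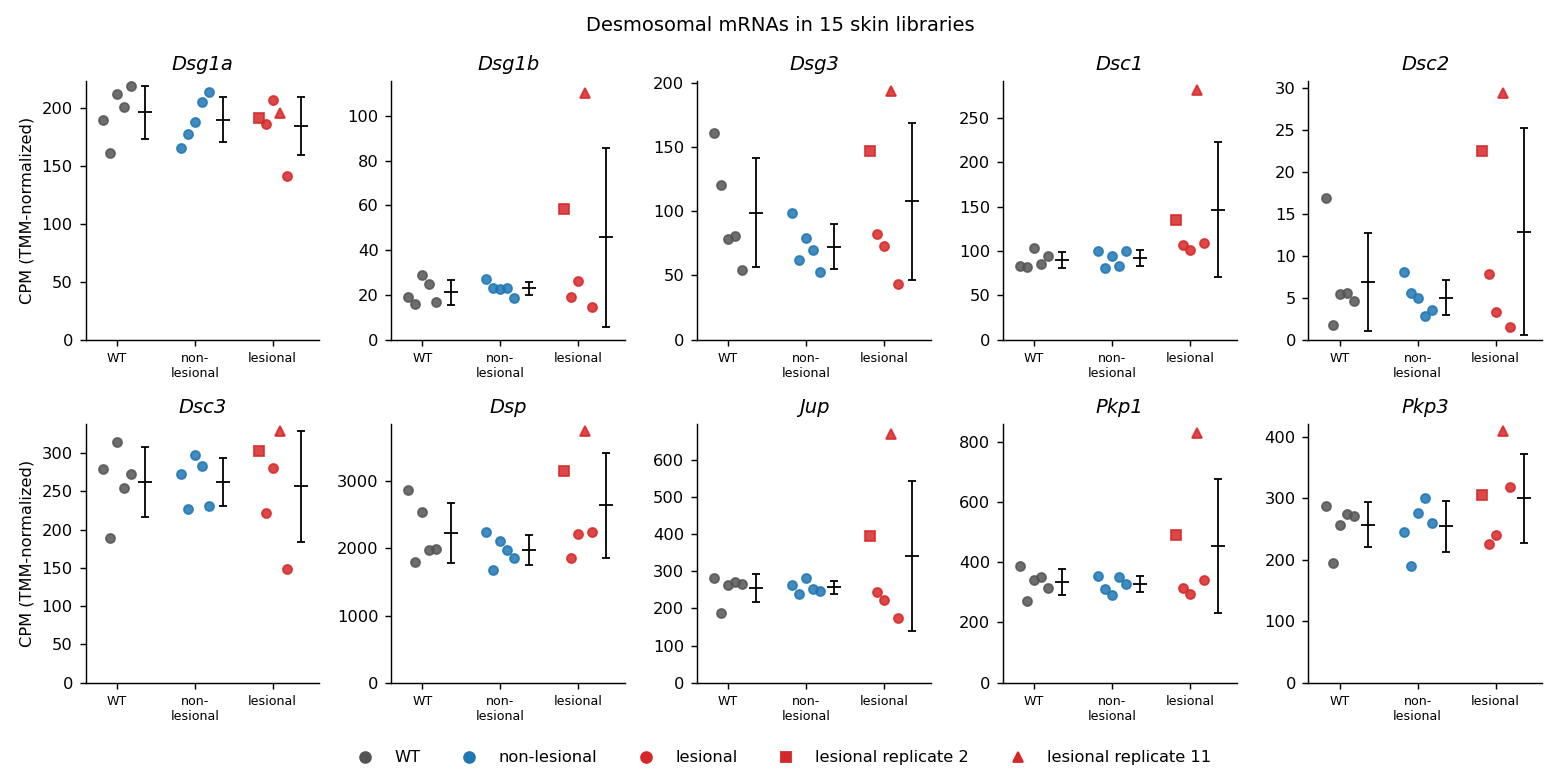
TMM-normalized CPM of each desmosomal gene (vertical axes start at 0) in 5 WT, 5 non-lesional and 5 lesional libraries, with the group mean and SD in black. Lesional replicate 11 (triangle) was the highest of 15 libraries for 9 of 10 genes, while *Dsg1a* stood at 196 CPM there, within the WT range.

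The first question was whether desmosomal mRNAs differed between non-lesional OTULIN-KO skin and WT skin. No member passed the test (edgeR's quasi-likelihood test, adjusted p of 0.9998 for each of the 10; DESeq2 called none either), and none reached an unadjusted p under 0.05, by edgeR or by DESeq2. Across all 13021 genes tested, 0% had an adjusted p under 0.05, 3.16% had an unadjusted p under 0.05, and 0.66% had groups that did not overlap; of the members, none had. The members' median log2 fold change was -0.02, against 0.00 for all genes, with 4 members higher and 6 lower.

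The suprabasal cadherins were close in both groups. *Dsg1a* was at 190 CPM in non-lesional and 196 CPM in WT skin (log2 fold change -0.05, SE 0.11), and *Dsc1* was at 91.7 and 89.8 CPM (0.03, SE 0.11). *Jup* (0.02, SE 0.11), *Pkp1* (-0.02, SE 0.11), *Pkp3* (-0.01, SE 0.13) and *Dsc3* (0.00, SE 0.13) also had log2 fold changes smaller than their errors, as did *Dsg1b* (0.12, SE 0.19). *Dsp* had -0.18 (SE 0.14), at 1976 CPM in non-lesional and 2235 CPM in WT skin. For *Jup* the approximate 95% interval of the log2 fold change ran from -0.20 to 0.24.

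*Dsg3*, the desmoglein of the lower layers, and *Dsc2*, a desmocollin found in many epithelia, had the lowest fold changes. *Dsg3* was at 98.6, 62.3, 79.1, 69.7 and 52.6 CPM in non-lesional replicates 3, 6, 9, 12 and 15, and at 161, 121, 78.3, 81.0 and 53.9 CPM in WT replicates 1, 4, 7, 10 and 13. The groups overlapped, and WT replicates 1 and 4 were above every non-lesional library. The log2 fold change was -0.45 (SE 0.28, exact permutation p = 0.262), and it was -0.20 without WT replicate 1 and 0.03 without WT replicates 1 and 4. *Dsc2* had a log2 fold change of -0.47 (SE 0.47, exact permutation p = 0.738), which turned to 0.20 without WT replicate 1, the library high in hair markers. With the hair score as covariate *Dsg3* had -0.24 and *Dsc2* 0.23.

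The second question was whether desmosomal mRNAs differed in lesional skin. No member passed the test across all genes against WT (edgeR adjusted p of 0.926 or more; none by DESeq2), where 0% of 12918 genes did. By unadjusted p under 0.05 *Dsg1b* and *Dsc1* passed, both higher in lesional skin, as 4.81% of all genes did in either direction. DESeq2 gave the same number of members by that measure, where 686 of 12918 genes passed. The members' median log2 fold change was 0.33, against 0.00 for all genes, and 8 of 10 members were higher. This median was 0.14 with a muscle score as covariate, 0.11 with limma's quality weights and 0.08 without lesional replicate 11. Without lesional replicates 2 and 11, an alternative added after seeing the data, the median was -0.12, 2 members were higher and none had an unadjusted p under 0.05. In the remaining lesional replicates 5, 8 and 14, *Krt6b* was at 2.59, 1.21 and 4.91 CPM, within the WT range of 1.28 to 17.3. For its qRT-PCR samples the paper names uneven lesional content as the likely source of variability. Whether leaving out replicates 2 and 11 removed the libraries richest in lesion was not tested. In whole skin, a lower or higher share of keratinocytes and a different amount of mRNA in each cell cannot be told apart.

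Lesional replicate 11 held the highest value of all 15 libraries for 9 of 10 members, and lesional replicate 2 was among the highest 2 libraries for 6. Relative to the WT mean, the median member stood at 2.22-fold in replicate 11 and 1.48-fold in replicate 2. The same median was 0.924 in replicate 5, 0.962 in replicate 8 and 0.708 in replicate 14. Lesional replicate 14 was the lowest of the 15 libraries for 6 members. The lesional group thus held both the highest and the lowest of the 15 values for 5 members, *Dsg1b*, *Dsg3*, *Dsc2*, *Dsc3* and *Jup*.

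*Dsg1b*, a duplicate of the desmoglein 1 gene, had the largest log2 fold change in this comparison. Lesional replicates 2, 5, 8, 11 and 14 held 58.2, 19.2, 26.3, 110 and 14.7 CPM, while the WT libraries ran from 15.9 to 29.0 CPM with a median of 19.2. Lesional replicates 2 and 11 lay above every WT library, replicate 14 lay just below, and the other two lay within the WT range. The log2 fold change was 1.12 (SE 0.50, edgeR p = 0.0467, adjusted p = 0.926), and the exact permutation test over the 10 libraries gave p = 0.286. Without lesional replicates 2 and 11 it was -0.06.

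*Dsg1a*, the neighbouring copy, did not follow *Dsg1b*. Lesional replicates 2, 5, 8, 11 and 14 held 191, 186, 207, 196 and 141 CPM, and the WT libraries 161 to 219 CPM. The libraries with the highest *Dsg1b* had *Dsg1a* levels inside the WT range. Its log2 fold change was -0.09 (SE 0.14), with an approximate 95% interval from -0.36 to 0.18. As a result, *Dsg1b* made up 23.4% of the *Dsg1a* and *Dsg1b* counts in lesional replicate 2 (95% Wilson interval 20.02% to 27.1%) and 36.1% in replicate 11 (32.4% to 40.0%). It made up 7.10% to 14.1% in the other 13 libraries. This share was chosen after the values were seen and is given without a test, and the intervals cover counting error only, because copies made by PCR were counted.

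*Dsg3* showed no fold change beyond its error, at 147, 82.0, 72.7, 194 and 43.2 CPM in lesional replicates 2, 5, 8, 11 and 14. Its log2 fold change was 0.12 (SE 0.40, exact permutation p = 0.960) and was -0.59 without lesional replicates 2 and 11. The share of *Dsg1a* and *Dsg1b* in the 3 desmoglein genes was 69.2% ± 10.8 in WT, 74.6% ± 5.74 in non-lesional and 70.0% ± 7.69 in lesional skin (SD, n = 5). None of its 3 comparisons had an exact permutation p below 0.317.

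*Dsc1*, the desmocollin of the upper layers, was higher in most lesional libraries and kept its direction without the 2 that stood apart. Lesional replicates 2, 5, 8, 11 and 14 held 135, 106, 101, 281 and 109 CPM, against 82.9, 82.1, 104, 85.7 and 94.5 CPM in WT replicates 1, 4, 7, 10 and 13. In non-lesional replicates 3, 6, 9, 12 and 15 it was at 100.4, 80.8, 93.7, 83.5 and 100.2 CPM. Every lesional library was above every non-lesional one, and 4 of 5 were above every WT library. The log2 fold change against WT was 0.71 (SE 0.26, edgeR p = 0.0170, adjusted p = 0.926; exact permutation p = 0.0159). It was 0.33 without lesional replicate 11 and 0.23 (SE 0.14) without replicates 2 and 11.

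*Dsc1* counts also took a higher share of the desmocollin counts in lesional skin, 34.7% ± 7.93 against 25.3% ± 2.97 in WT and 25.7% ± 2.84 in non-lesional skin (SD, n = 5). The difference from WT was 9.39 percentage points (exact permutation p = 0.0238) and from non-lesional skin 9.05 points (p = 0.0397, exact permutation test), but after adjustment over the 9 share tests both were at 0.179. The share reached 44.0% in lesional replicate 11 and 42.2% in replicate 14. In replicate 11 *Dsc1* itself was high (555 of 1262 desmocollin counts). In replicate 14 *Dsc1* was near the other lesional libraries and *Dsc3* was low, at 148 CPM against 189 to 315 CPM in WT. Other keratinocyte markers differed in direction in replicates 11 and 14. *Krt10*, a differentiation marker in the paper, was at 1383 and 1059 CPM there, against 2169 to 5070 CPM in WT. *Flg* was at 2206 and 456 CPM, against 297 to 464 CPM in WT.

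**Figure D2:**
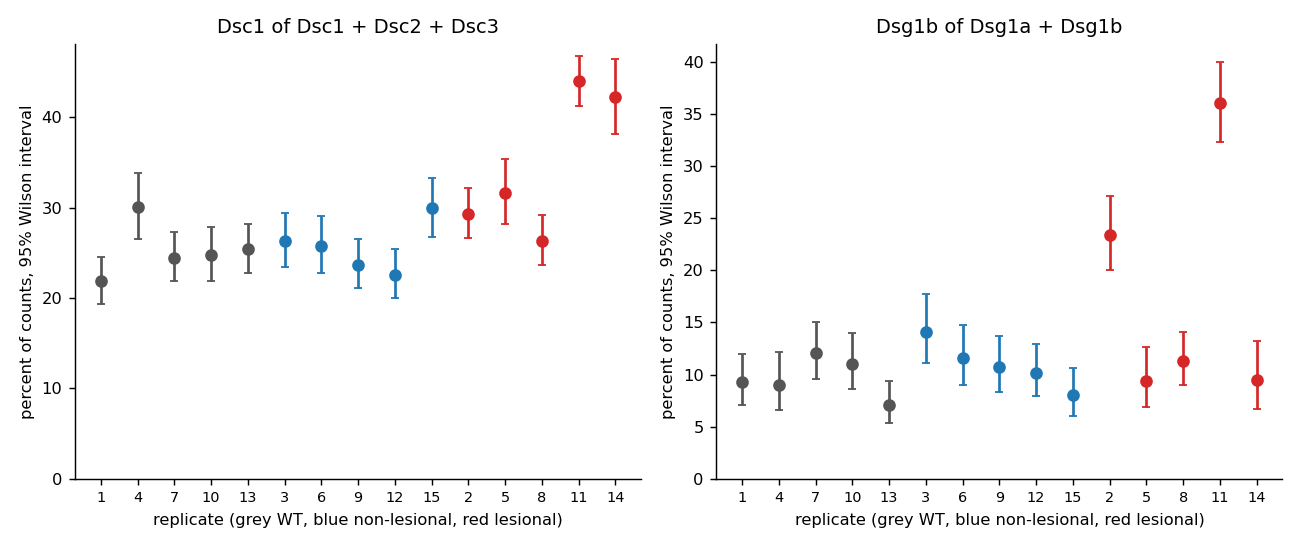
Share of *Dsc1* in the desmocollin counts (left) and of *Dsg1b* in the *Dsg1a* and *Dsg1b* counts (right) in each library, in percent with 95% Wilson intervals, by replicate number and coloured by group. *Dsc1* took 44.0% and 42.2% in lesional replicates 11 and 14, while *Dsg1b* took 23.4% and 36.1% in lesional replicates 2 and 11.

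*Dsc2* was scarce, and its fold change had the largest error. It was at 22.5, 7.78, 3.23, 29.4 and 1.47 CPM in lesional replicates 2, 5, 8, 11 and 14, and at 1.77 to 16.9 CPM in WT. The lesional libraries lay on both sides of the WT range, with a log2 fold change of 0.88 (SE 0.74, exact permutation p = 0.556) that turned to -0.76 without lesional replicates 2 and 11. It was 1.56 (SE 0.77) without WT replicate 1 and 1.27 (SE 0.58) with the hair score as covariate. *Dsc3*, the desmocollin of the lower layers, was at 303, 222, 281, 329 and 148 CPM in those 5 libraries, with a log2 fold change of -0.03 (SE 0.20) that was -0.28 without replicates 2 and 11.

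Of the plaque genes, *Jup* and *Pkp1* had the larger fold changes. In lesional replicates 2, 5, 8, 11 and 14 *Jup* was at 395, 243, 222, 669 and 175 CPM, and in WT libraries it ran from 188 to 282 CPM with a median of 266. *Pkp1*, whose product clusters desmosomal proteins in the upper epidermis, was at 489, 313, 296, 828 and 342 CPM, against 273 to 389 CPM in WT with a median of 341. For both genes lesional replicates 2 and 11 were above every WT library and the others were not. The log2 fold changes were 0.43 (SE 0.32, exact permutation p = 0.532) for *Jup* and 0.45 (SE 0.26, exact permutation p = 0.325) for *Pkp1*. Without lesional replicates 2 and 11 they were -0.26 and -0.08.

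*Dsp* and *Pkp3*, a plakophilin present in all living epidermal layers, differed less. *Dsp* was at 3151, 1852, 2212, 3746 and 2241 CPM in lesional replicates 2, 5, 8, 11 and 14, with a log2 fold change of 0.24 (SE 0.22). *Pkp3* was at 305, 226, 240, 409 and 318 CPM in the same libraries, with a log2 fold change of 0.22 (SE 0.17). These were -0.09 for *Dsp* and 0.02 for *Pkp3* without lesional replicates 2 and 11. *Pkp3* was above every WT library in 3 lesional libraries, including replicate 14, which lay below every WT library for 6 other members. The share of *Pkp1* in the *Pkp1* and *Pkp3* counts was 56.5% ± 1.82 in WT, 56.5% ± 4.30 in non-lesional and 58.7% ± 5.83 in lesional skin (SD, n = 5), with exact permutation p of 0.476 or more.

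**Figure D3:**
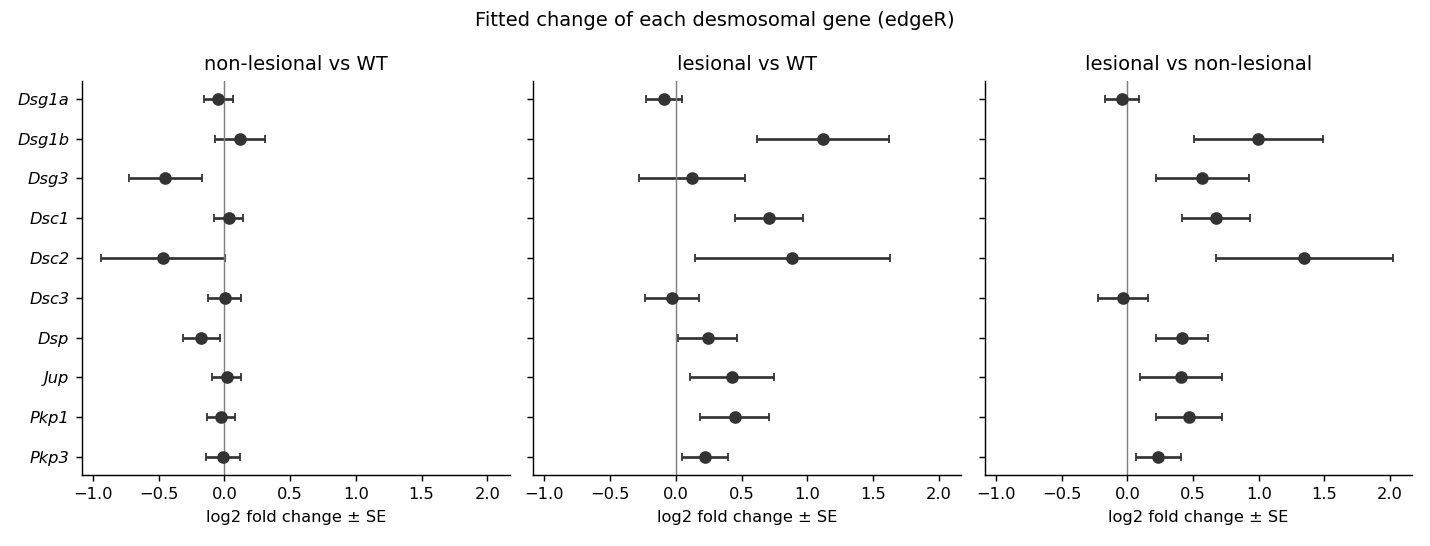
Fitted log2 fold change of each desmosomal gene with its standard error in the 3 comparisons, each fitted with edgeR on 5 against 5 libraries. *Dsg1b*, *Dsc1* and *Dsc2* lie farthest to the right in both lesional comparisons, and no gene had an adjusted p under 0.05.

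**Figure D4:**
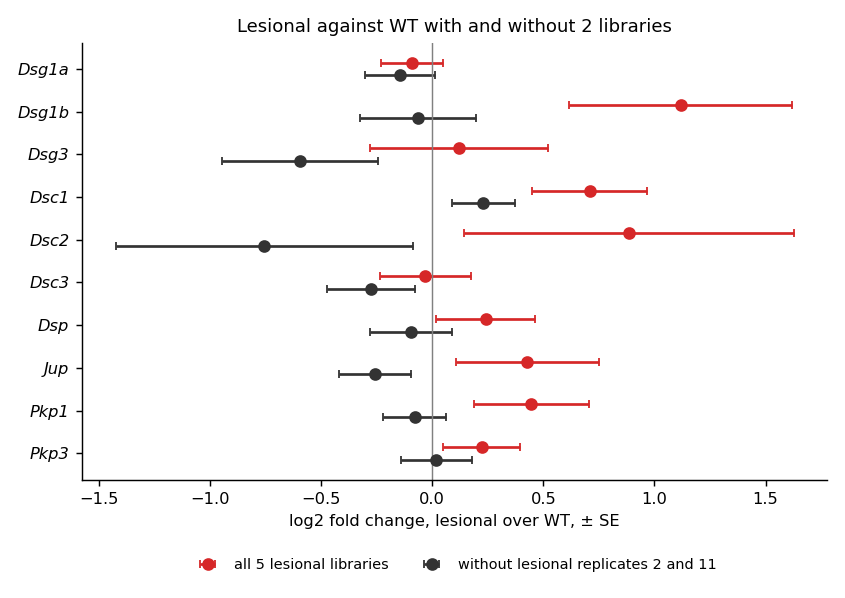
Fitted log2 fold change (± SE) of lesional over WT skin with all 5 lesional libraries (red) and without lesional replicates 2 and 11 (black). The value for *Dsg1b* went from 1.12 to -0.06 and that for *Jup* from 0.43 to -0.26, while *Dsc1* went from 0.71 to 0.23.

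Lesional skin was also compared with non-lesional skin of the same genotype, using the same lesional libraries as above, so the comparisons are not independent. Again no member passed the test (edgeR adjusted p of 0.973 or more; DESeq2 also gave none), where 0% of 12864 genes did. *Dsc1* passed an unadjusted p under 0.05, as 4.22% of all genes did. DESeq2 gave 4 members by that measure, where 615 of 12864 genes passed. Without lesional replicate 14 edgeR gave 5 members and 877 of 13159 genes, with all 10 members higher and a median log2 fold change of 0.56. It gave 5 members and 855 of 13089 genes without replicate 8, and 4 members and 1004 of 13136 genes without replicate 5. *Dsc1* was also the member whose groups did not overlap, against 0.622% of all genes, and against WT no member had groups without overlap, where 0.689% of genes had. For *Dsc1* the log2 fold change was 0.68 (SE 0.26, edgeR p = 0.0216), and its exact permutation p of 0.0079 is the smallest that 5 against 5 libraries allow. That permutation p is not adjusted over the members or the comparisons. The nearest libraries of the groups were close, lesional replicate 8 at 101.4 CPM and non-lesional replicate 3 at 100.4 CPM. The log2 fold change was 0.30 without lesional replicate 11 and 0.20 (SE 0.13) without replicates 2 and 11. It was 0.30 (SE 0.20) with the hair score as covariate and 0.40 (SE 0.13) with the muscle score.

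The other members are given for this comparison from the highest to the lowest. *Dsc2* had a log2 fold change of 1.35 (SE 0.67), *Dsg1b* of 0.996 (SE 0.49), *Dsg3* of 0.57 (SE 0.35), *Pkp1* of 0.47 (SE 0.25), *Dsp* of 0.42 (SE 0.20) and *Jup* of 0.41 (SE 0.31). *Pkp3* had 0.24 (SE 0.17), *Dsc3* -0.03 (SE 0.19) and *Dsg1a* -0.04 (SE 0.13). The median of the 10 was 0.44, and it was -0.11 without lesional replicates 2 and 11. Without them *Dsc2* had -0.29, *Dsg1b* -0.18, *Dsg3* -0.14, *Pkp1* -0.05, *Jup* -0.27, *Dsc3* -0.27 and *Dsg1a* -0.09, while *Dsp* had 0.09 and *Pkp3* 0.04. The median was 0.23 with the muscle score, 0.21 with limma's quality weights and 0.08 with the hair score as covariate. With the hair score no member had an unadjusted p under 0.05 by edgeR, where 204 of 12864 genes had. *Dsg1b* then had 0.14, *Dsc2* 0.25 and *Pkp1* 0.04. Of the libraries compared here, lesional replicates 2 and 11 had the highest hair scores, 6.69 and 6.72, followed by 5.54 in lesional replicate 14. In this comparison the hair covariate thus cannot be told apart from a mark of replicates 2 and 11.

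Summed over the 10 genes, desmosomal mRNA was at 3753 ± 605 CPM in WT, 3459 ± 308 in non-lesional and 4487 ± 1493 in lesional skin (SD, n = 5). The lesional range of 3257 to 6791 CPM covered most of the WT range of 3026 to 4570. The sum was 5196 and 6791 CPM in lesional replicates 2 and 11, and 3257 to 3660 in the other 3. Per count of the keratins *Krt5* and *Krt14*, the members gave 0.880 and 0.655 counts in replicates 2 and 11, the lowest of the 15 libraries. The remaining 13 libraries lay between 0.935 and 1.43, so in these 2 libraries desmosomal counts were high in CPM but low per count of these keratins. That ratio depends on the keratins chosen, because *Krt15*, another basal keratin, was at 1179 and 644 CPM in replicates 2 and 11 and at 2039 to 3448 CPM elsewhere. In these libraries *Krt14* stood at 3167 and 5993 CPM, and elsewhere at 653 to 1473 CPM.

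**Figure D5:**
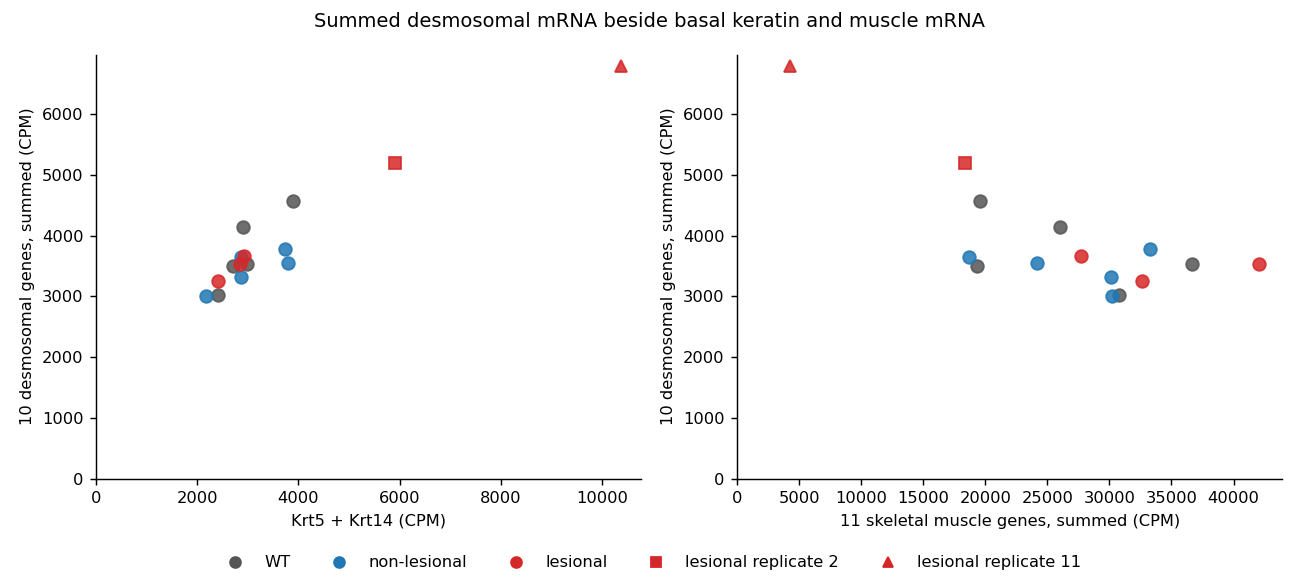
Summed CPM of the 10 desmosomal genes in each library against the CPM of *Krt5* plus *Krt14* (left) and the summed CPM of 11 skeletal muscle genes (right); all axes start at 0. Lesional replicate 11 combines the highest desmosomal sum, 6791 CPM, with the lowest muscle sum, 4285 CPM.

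Lesional replicate 11 was also low in mRNA of several other tissues, but not of all. The muscle sum was 4285 CPM in it, 18367 in replicate 2 and 18706 to 42053 in the other 13 libraries, so replicate 2 lay near the lowest of those. The fibroblast sum of 16563 CPM and the endothelial sum of 122 CPM in replicate 11 were the lowest of the 15 libraries as well. The macrophage sum went the other way, at 565 CPM in replicate 11 against 255 to 542 elsewhere. The part of these tissues in the result was not tested. With a muscle score as a covariate, the log2 fold change in lesional against WT skin was 0.55 for *Dsg1b*, 0.46 for *Dsc1*, 0.21 for *Pkp1*, 0.10 for *Jup* and -0.19 for *Dsg3*. The flat level of *Dsg1a* in replicate 11, at 0.997 of the WT mean, stood beside 5.23-fold for *Dsg1b*, 4.30-fold for *Dsc2*, 3.13-fold for *Dsc1* and 2.64-fold for *Jup*. The members' folds thus differed in that library, and the reason was not tested.

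Of 10 other desmosomal genes, 7 were tested in each comparison with WT and 8 against non-lesional skin, and none passed (edgeR and DESeq2). *Perp*, a membrane protein of desmosomes, was at 847 ± 97.3 CPM in WT and 948 ± 195 in lesional skin (SD, n = 5). *Evpl* and *Ppl*, cornified envelope proteins that bind desmosomes, had log2 fold changes of 0.32 (SE 0.18) and -0.09 (SE 0.14) in lesional against WT skin. *Cdsn*, the corneodesmosome protein, had -0.03 (SE 0.21), *Pkp4* -0.18 (SE 0.15), and *Kazn* 0.21 (SE 0.23). *Dsg2*, the desmoglein of simple epithelia, was at 46.2 ± 12.03 CPM in WT and 35.3 ± 6.31 in non-lesional skin (log2 fold change -0.38, SE 0.18, edgeR adjusted p = 0.9998). The list's median log2 fold change in lesional against WT skin was -0.03. *Dsg1c* and *Dsg4* did not exceed 0.901 CPM in any library, and *Pkp2* was at 2.98 CPM in WT.

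Genes of other junctions gave no call in any comparison either. Among 9 adherens junction genes, the median log2 fold change in lesional against WT skin was 0.15, with *Cdh1* (E-cadherin) at 0.48 (SE 0.24) and *Nectin1* at 0.51 (SE 0.45). Among 8 tight junction genes the median was 0.02, with *Cgn* (cingulin) at -0.78 (SE 0.25) and *F11r* at 0.41 (SE 0.22). Among 8 hemidesmosome genes the median was -0.12, with *Col17a1* at -0.24 (SE 0.17). The gap junction list had a median of 0.27, and its connexin genes *Gjb2* and *Gjb6* stood at 535 and 151 CPM in lesional replicate 2 and at 1186 and 280 CPM in replicate 11, with at most 24.4 and 17.3 CPM elsewhere. In the epidermal keratin list, whose median was 0.68, 6 of 9 tested genes were higher and 3 lower (*Krt10* at -0.49, *Krt15* at -0.56 and *Krt77* at -0.40), and 5 of the higher ones had an unadjusted p under 0.05; the smallest 2 belonged to *Krt16* (4.78, SE 1.82) and *Krt14* (1.36, SE 0.57). The fold changes of *Krt16* and *Krt14* rested on lesional replicates 2 and 11, where *Krt16* stood at 910 and 2901 CPM, with at most 99.1 CPM elsewhere. Without both, none of the 9 keratin genes had an unadjusted p under 0.05, the list's median was -0.18, and the log2 fold change of *Krt14* was -0.05; exact permutation p with all libraries was 0.286 for *Krt16* and 0.214 for *Krt14*.

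The members followed one another to different degrees over the 15 libraries (a description only, since 2 libraries carry much of the range). The correlation of log2 CPM with the mean of the other 9 members was highest for *Jup* (Pearson r = 0.96) and *Pkp1* (0.91) and lowest for *Dsg1a* (0.24). Without lesional replicates 2 and 11 it was 0.81 for *Jup*, 0.51 for *Pkp1* and -0.18 for *Dsc1*, which had 0.77 over all libraries. Genes outside the desmosomal set whose log2 CPM followed the members' mean most closely included *Ptbp3*, *Junb*, *Gltp*, *Defb1*, *Bzw1*, *Cpeb2*, *Tfap2a*, *Cstb* and *Map2k4*, with r from 0.95 to 0.97 over 15 libraries and from 0.76 to 0.90 over the 13 without lesional replicates 2 and 11.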

How the data were processed

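Per the labels and the study's methods, RNA of whole skin was made into QuantSeq 3′ libraries. The authors clipped adaptors with cutadapt 2.10, mapped reads with subread-align to GRCm38 with ERCC sequences, kept high-quality primary matches and counted them over exons with featureCounts 2.0.1. The deposited values used are these raw counts. The listed parameters set no strand, and the annotation release is not given in the sources used here. The methods word the RNA integrity limit for inclusion ambiguously, and integrity per library was not analysed here. The deposited CPM table was not used. The authors' test was DESeq2's Wald test.

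Each pair of groups was fitted with edgeR 4.0.16 (TMM, filterByExpr, robust quasi-likelihood F-test; SE is the log2 fold change over the root of F), with Benjamini-Hochberg adjustment over all genes tested and a threshold of 0.05. Single values were tested by the two-sided exact permutation test over 252 regroupings. Log2 CPM used a prior count of 2. Alternatives used DESeq2 1.42.0, limma 3.58.1 and other settings. Replicates of a group differed by a chi-square of at least 3.67 per gene, so none was a repeated library.

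The members, the gene lists and the rule for named genes were chosen with earlier results of these data known. Named were the members, the other desmosomal genes, the 2 genes of lowest p from every remaining list in lesional against WT skin, and the 10 genes most like the members. Some genes that this rule names are not reported here.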

Additional observations from a re-analysis of the deposited data

Results flagged for a closer look

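Of 45 groups of 5 values (each member's log2 CPM, the 3 shares, the library total and the summed CPM, in each group), 3 had 1 library far from the others by Dixon's ratio (gap to the nearest value over the range), which chance gives for about 1 group in 20. *Jup* in WT replicate 4 was the lowest of its group (ratio 0.821), at 188 CPM against 262 to 282 in the other WT libraries. *Dsg1a* in lesional replicate 14 was the lowest of its group (ratio 0.730), at 141 CPM against 186 to 207. *Dsc1* in lesional replicate 11 was the highest of its group (ratio 0.722), at 281 CPM against 101 to 135.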

How the results depend on the processing

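No paired analysis was run. The groups share no replicate numbers, and no source used here ties samples across groups. The numbers run in consecutive sets of a WT, a lesional and a non-lesional library. What these sets stand for is not stated, and they were not used as blocks. The members' summed CPM was lowest of its group in WT replicate 4, lesional replicate 5 and non-lesional replicate 6. It was highest in WT replicate 1, lesional replicate 11 and non-lesional replicate 3. A shared effect of these sets was not tested. No member had an adjusted p under 0.05 under any of the 21 or 22 alternatives run for each comparison, and no other desmosomal gene had. Of all genes, DESeq2 called 3 and the fit without a filter called 18 in non-lesional against WT skin, leaving out 1 library gave 0 to 5, the highest without non-lesional replicate 6, and DESeq2 called 1 in lesional against WT skin; the cause was not tested. The hair score covariate reversed the non-lesional against WT log2 fold change of *Dsc2* (0.23), *Pkp1* (0.039) and *Pkp3* (0.058) and the lesional against non-lesional value of *Jup* (-0.063). Others near 0 reversed too. These were *Pkp3* (0.0054 with limma's quality weights, 0.0026 with the muscle score) and *Dsc3* (-0.0022 with DESeq2, -0.0022 with its size factors, -0.00072 without a filter) in non-lesional against WT skin, and *Dsg3* in lesional against WT skin (-0.042 with quality weights, -0.19 with the muscle score).

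The 2 alternatives that left out pairs of libraries were chosen after seeing the data. Without WT replicates 1 and 4, log2 fold changes of non-lesional against WT skin reversed for *Dsg1b* (-0.030), *Dsg3* (0.030), *Dsc1* (-0.045), *Dsc3* (-0.097) and *Jup* (-0.052). Without lesional replicates 2 and 11, the members' medians were -0.12 against WT and -0.11 against non-lesional skin. The values against WT reversed for *Dsg1b* (-0.064), *Dsg3* (-0.59), *Dsc2* (-0.76), *Dsp* (-0.095), *Jup* (-0.26) and *Pkp1* (-0.079), and those against non-lesional skin for *Dsg1b* (-0.18), *Dsg3* (-0.14), *Dsc2* (-0.29), *Jup* (-0.27) and *Pkp1* (-0.050).

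Leaving out single libraries gave log2 fold changes that crossed 0 in non-lesional against WT skin for *Dsc1* (-0.0073 to 0.087), *Dsc2* (-0.71 to 0.20), *Dsc3* (-0.094 to 0.075), *Jup* (-0.072 to 0.059), *Pkp1* (-0.087 to 0.038) and *Pkp3* (-0.097 to 0.077). In lesional against WT skin they crossed 0 for *Dsg3* (-0.20 to 0.37) and *Dsc3* (-0.14 to 0.11), and in lesional against non-lesional skin for *Dsg1a* (-0.089 to 0.039) and *Dsc3* (-0.14 to 0.11).

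For the shares, judged here by the unadjusted exact p, leaving out single libraries gave differences of 7.07 to 11.5 percentage points against WT and 6.73 to 11.1 against non-lesional skin for *Dsc1* in lesional skin. The p rose above 0.05 without WT replicate 1, 7, 10 or 13, without non-lesional replicate 3, 6, 9 or 12, and, against non-lesional skin, without lesional replicate 11 or 14. Other ranges were -2.44 to 3.82 (*Dsg1a* and *Dsg1b*, lesional against WT), -0.734 to 1.53 (*Dsc1*, non-lesional against WT) and -1.50 to 1.26 (*Pkp1*, non-lesional against WT). With *Pkp2* and *Pkp4* in the total, the last difference was 0.291. Without WT replicates 1 and 4, the *Dsg1a* and *Dsg1b* share differed by -2.16 points in non-lesional and -6.78 in lesional skin, *Pkp1* in non-lesional skin by 0.880, and *Dsc1* in lesional skin by 9.82 with p = 0.0893 (exact permutation test). Without lesional replicates 2 and 11, the *Dsg1a* and *Dsg1b* share differed by 0.687 points from non-lesional skin, and *Pkp1* by -1.49 from WT and -1.45 from non-lesional skin.

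*Dsc2* was the least abundant member, at 3 to 58 counts per library, and the effect of depth was not tested.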
